A study of Mus musculus with 2 samples.

Results

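The genes described here are the Wnt ligands, their Frizzled receptors, the coreceptors Lrp5 and Lrp6, and 2 families of secreted inhibitors, Dkk and Sfrp, in the adult mouse cerebral cortex. They were taken by gene symbol, with no use of measured values, and number 39 of 55536 annotated genes: 19 Wnt, 10 Frizzled, 2 Lrp, 4 Dkk and 4 Sfrp genes. Total RNA of the left cerebral cortex was sequenced from 2 male mice aged 2 months, in 1 library each. The mice were B6CASTF1/J, the F1 hybrid of C57BL/6J and CAST/EiJ from The Jackson Laboratory, and each library was made from 300 ng of RNA with ERCC spike-ins, a set of synthetic RNAs of known amount. The labels give the mice separate male numbers but 1 shared donor record, so the spread between libraries may be in part technical. Both libraries belong to 1 group, so no conditions were compared and no p-values are given.

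Wnt proteins are secreted signals that carry a fatty acid. They bind Frizzled receptors, and together with Lrp5 or Lrp6 they stop the destruction of beta-catenin, which then enters the nucleus and switches on target genes through TCF and LEF factors. Other routes from Frizzled receptors orient cells within a tissue or release calcium. Sfrp proteins bind Wnts outside the cell, and Dkk1, the founding Dkk, binds Lrp5 and Lrp6. In the brain, Wnt signals are known for patterning the embryonic cortex, for axon growth, for synapse formation and for building the vessels of the blood-brain barrier.

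The feature that all Wnt ligands share is the serine that Porcn, an enzyme of the endoplasmic reticulum, loads with the fatty acid. Its coding window was found in the reference transcripts of 19 of 19 Wnt genes. It is shown for the 8 ligands that reached 1 TPM in both animals (TPM is a level corrected for transcript length and library size), to show how alike the detected ligands are at the site where they are modified. Each line gives 30 bases of coding exon, or 10 codons, 5′ to 3′ on the gene's strand, from the transcripts of annotation release M21 on mm10. Capitals mark the codon of the modified serine.
Wnt7b: tgtaagtgtcacggtgtgTCAggctcctgt
Wnt7a: tgtaagtgccatggtgtgTCAggctcctgt
Wnt5a: tgtaagtgtcatggagtgTCTggctcctgt
Wnt4: tgcaagtgtcacggggtgTCGggctcctgc
Wnt2: tgcaagtgtcatggtgtgAGTggctcctgt
Wnt9a: tgcaaatgccatggtgtgTCTggctcctgc
Wnt6: tgtaagtgccatgggcttTCGggttcctgc
Wnt10a: tgcaaatgccacggcaccTCAggcagctgc
The windows lie at chr15:85537812-85537841 for Wnt7b and chr6:91366272-91366301 for Wnt7a, both on the minus strand. Those of Wnt5a at chr14:28522509-28522538, Wnt4 at chr4:137296339-137296368 and Wnt9a at chr11:59330920-59330949 are on the plus strand. The Wnt2 window at chr6:18008792-18008821 is on the minus strand, and those of Wnt6 at chr1:74784166-74784195 and Wnt10a at chr1:74803150-74803179 are on the plus strand.

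Of the 30 bases, Wnt7a differed from Wnt7b, the most abundant ligand, at 2, Wnt5a at 3, Wnt4 at 4, Wnt2 at 5, Wnt9a at 6, Wnt6 at 8 and Wnt10a at 10. Over all 19 Wnt genes the 30 bases were distinct in every gene. Translated, 11 of the 19 carried the same 10 residues, among them Wnt2, Wnt4, Wnt5a, Wnt7a, Wnt7b and Wnt9a. A second form was shared by Wnt3, Wnt3a and Wnt6, and another by Wnt10a and Wnt10b. The serine codon was TCA in 6 genes, TCC in 5, TCT in 4, TCG in 2 and AGT in 2.

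In the cortex, 21 of the 39 genes (53.8%) reached 1 TPM in both animals, against 58.7% of the 22028 protein-coding genes. A larger share of the receptor genes than of the ligand and inhibitor genes did so. Of the Frizzled genes 9 of 10 reached this level, as did both Lrp genes, while 8 of 19 Wnt, 1 of 4 Dkk and 1 of 4 Sfrp genes did. In a piece of tissue, fewer cells of a type and less RNA per cell cannot be told apart. The plot of levels by animal places all members on 1 scale.

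**Figure D1:**
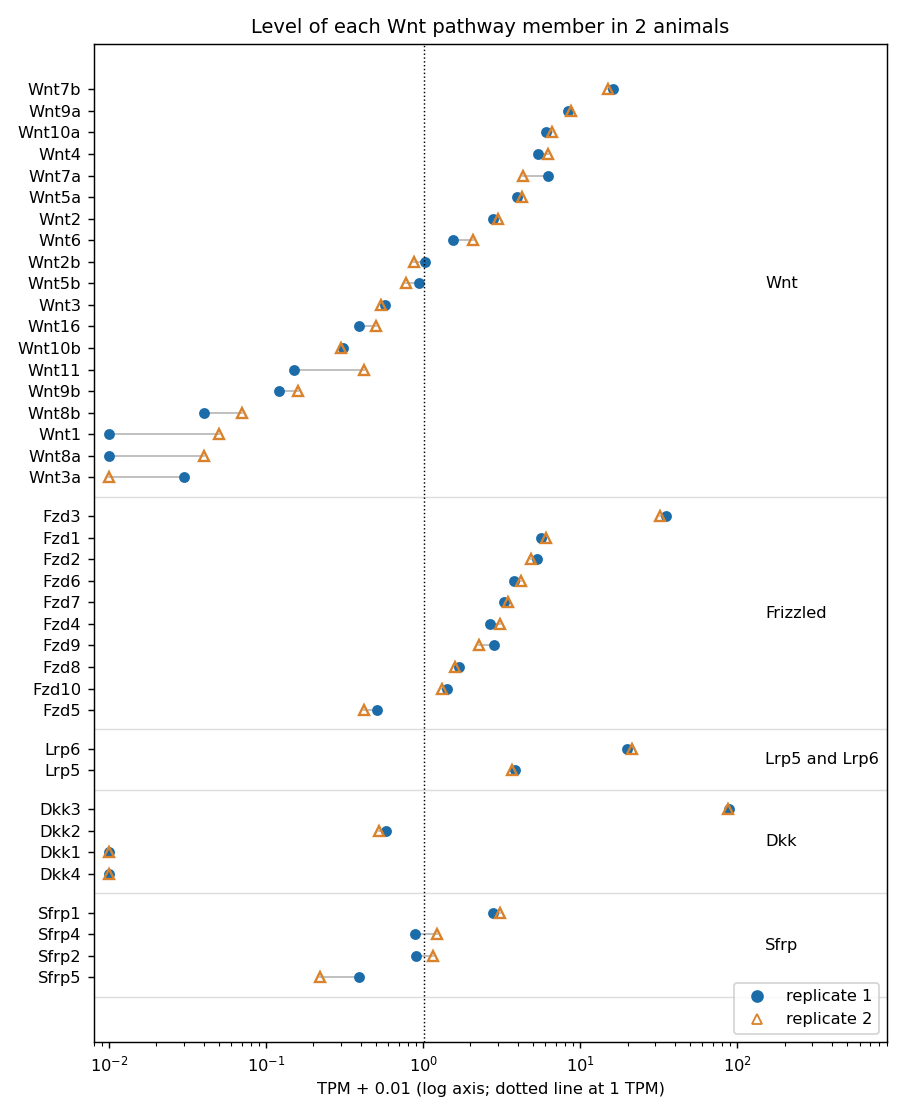
TPM plus 0.01 on a log axis for the 39 members in replicate 1 (filled circles) and replicate 2 (open triangles), grouped by family, with a dotted line at 1 TPM. Dkk3, Fzd3 and Lrp6 lie to the right of every other member, and Dkk1 and Dkk4 are listed at 0 TPM in both animals.

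Among the ligands, Wnt7b was highest. Its level was 16.08 TPM in replicate 1 and 14.92 TPM in replicate 2 (15.5 ± 0.820, SD, n = 2), which ranked 6598 among the 22028 protein-coding genes. Wnt7b is known for dendrite growth and, with Wnt7a, for the growth of brain vessels. Wnt9a followed at 8.35 and 8.71 TPM, and the ratio of the Wnt7b level to the Wnt9a level was 1.82 ± 0.150 (SD, n = 2). Wnt10a, known for its role in teeth and hair, stood at 6.07 and 6.62 TPM, and Wnt4, known for kidney and ovary development, at 5.34 and 6.24 TPM. The ranges of Wnt10a and Wnt4 overlapped, as did those of Wnt4 and Wnt7a, so their order was not settled by these values. In a second deposited quantification of the same reads, both pairs were separate in the same order.

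Wnt7a was deposited at 6.25 TPM in replicate 1 and 4.31 TPM in replicate 2, the widest spread between the animals in TPM among the ligands above 1 TPM. Wnt5a, a ligand of the routes that do not pass through beta-catenin, was at 3.92 and 4.24 TPM. Wnt2 had 2.79 and 3.00 TPM, and Wnt6 had 1.54 and 2.06 TPM. The remaining 11 Wnt genes fell below 1 TPM in at least 1 animal. Wnt2b was the nearest to the threshold at 1.02 and 0.87 TPM, and Wnt5b had 0.93 and 0.77 TPM.

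Low but clearly counted ligands came next. Wnt3 had 36 and 34 expected counts (0.56 and 0.53 TPM), Wnt16 13 and 13, Wnt10b 13 and 16, and Wnt9b 11 and 14. Wnt11 had 5 and 8 expected counts. At the bottom were 4 ligands best known from the embryonic nervous system or early embryo, each with at most 2 expected counts in either library. Wnt8b had 2 and 1 expected counts, Wnt1 0 and 2, Wnt8a 0 and 1, and Wnt3a 1 and 0. With 0 counts seen, up to 3 remain possible (0.0913 CPM in replicate 1 and 0.0937 CPM in replicate 2, as shares of all gene counts), so these 4 could not be ranked. Of the 18 neighbouring pairs in the order of Wnt levels, 10 did not overlap between the animals and 8 did. The order of 2 pairs turned in the second quantification. One was Wnt7a above Wnt5a, separate by gene TPM, with Wnt7a at 4.68 and 4.91 TPM there and Wnt5a at 6.45 and 6.67 TPM, and the other was Wnt1 above Wnt8a.

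Close relatives stood at unlike levels. Wnt5a was 4.86 ± 0.913 times Wnt5b, Wnt2 was 3.09 ± 0.504 times Wnt2b, and Wnt7b was 3.02 ± 0.629 times Wnt7a by TPM (SD, n = 2). In the second quantification, the Wnt7b to Wnt7a ratio was 4.51 ± 0.335. The ratios by TPM include short noncoding transcripts, described below. Coding transcripts alone stood at 15.75 and 14.43 TPM for Wnt7b and at 2.83 and 2.98 TPM for Wnt7a. For Wnt5a they stood at 2.63 and 2.99 TPM, and for Wnt5b at 0.92 and 0.77 TPM. Summed over 19 genes, the Wnt level was 53.83 TPM in replicate 1 and 53.74 TPM in replicate 2, of which Wnt7b made up 28.8% ± 1.49 (SD, n = 2).

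Among the receptors, Fzd3 stood far above the rest. Fzd3, a receptor of the planar polarity route known for guiding axon tracts, was at 35.20 and 32.28 TPM with 8574 and 8716 expected counts, and took 55.5% ± 1.60 of the summed Frizzled level (SD, n = 2). That level was 62.19 TPM in replicate 1 and 59.41 TPM in replicate 2. Fzd1 was second at 5.60 and 6.02 TPM, and the ratio of the Fzd3 to the Fzd1 level was 5.82 ± 0.653, or 5.60 ± 0.0840 in the second quantification. Fzd6, the closest relative of Fzd3 and its partner in planar polarity, had 3.76 and 4.16 TPM.

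The other Frizzled genes ran downward from Fzd2. Fzd2 had 5.32 and 4.83 TPM, Fzd7 3.26 and 3.47 TPM, and Fzd4, the receptor of norrin in vessels, 2.64 and 3.09 TPM. Fzd9 had 2.83 and 2.26 TPM, which overlapped Fzd4. Fzd8 had 1.67 and 1.58 TPM, Fzd10 had 1.41 and 1.31 TPM, and Fzd5 had 0.50 and 0.41 TPM and was the 1 Frizzled gene below the threshold. Apart from Fzd4 and Fzd9, each neighbour in this order, 8 of 9, was separate in both animals by gene TPM. Fzd2 and Fzd6 were not separate in the second quantification, and the place of Fzd6 depends on the transcripts counted, as given below. A further trait of the family is that 7 of the 10 Frizzled proteins are encoded in 1 coding exon, in Fzd1, Fzd2, Fzd5, Fzd7, Fzd8, Fzd9 and Fzd10. Fzd4 has 2 coding exons, and Fzd3 and Fzd6 have 6 each.

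Lrp6 exceeded Lrp5. Lrp6 had 19.79 and 21.20 TPM and Lrp5 had 3.81 and 3.68 TPM, a ratio of 5.48 ± 0.401 (SD, n = 2), or 6.05 ± 0.957 in the second quantification. Both genes encode single-pass receptors that join Frizzled and Wnt on the cell surface. Lrp6 carried 84.5% ± 0.957 of the level of both genes together. The ratio and this share count all transcripts. Coding transcripts alone stood at 16.67 and 16.57 TPM for Lrp6 and at 3.54 and 3.56 TPM for Lrp5. The long form Lrp6-201 had 13.01 and 13.25 TPM, and the long form Lrp5-201 had 3.39 and 3.37 TPM.

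Of the inhibitors, Dkk3 was the highest of all 39 members. It had 88.11 TPM in replicate 1 and 87.44 TPM in replicate 2 (87.8 ± 0.474, SD, n = 2), with 6253 and 6091 expected counts. Dkk3 alone thus lay above the 19 Wnt genes summed, at 53.83 and 53.74 TPM, in both animals. Dkk3 is the divergent member of its family, and unlike Dkk1 it is not known as a blocker of Lrp6. Dkk2 had 0.57 and 0.51 TPM, and the ratio of the Dkk3 to the Dkk2 level was 163 ± 11.9 (SD, n = 2).

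Dkk1 and Dkk4 had 0 expected counts in both libraries. A count of 0 allows up to 0.0592 TPM in replicate 1 and 0.0603 TPM in replicate 2 for Dkk1, and up to 0.113 and 0.115 TPM for Dkk4. The second quantification did assign reads to both, with 5 and 4 estimated counts for Dkk1 and 2 and 8 for Dkk4, so the values of 0 depend on the quantification. Such limits cover counting error only.

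The 4 Sfrp genes summed to 4.93 TPM in replicate 1 and 5.63 TPM in replicate 2. Among these 4, Sfrp1 led with 2.78 and 3.06 TPM, or 55.4% ± 1.44 of their sum (SD, n = 2). Sfrp4 had 0.88 and 1.21 TPM and Sfrp2 had 0.89 and 1.15 TPM, which overlapped, and Sfrp5 had 0.38 and 0.21 TPM. The gene for the third Sfrp protein is named Frzb in the mouse and is given with the wider pathway below. At 11.67 and 12.52 TPM, Frzb was above Sfrp1 and above the 4 Sfrp genes summed.

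Gene TPM sums all annotated transcripts of a gene, and short noncoding transcripts weigh heavily in it. Wnt7a shows this most clearly. Its expected counts were nearly equal, 204 in replicate 1 and 201 in replicate 2. Of these, 14.4 and 5.53 counts were assigned to a processed transcript without coding sequence, Wnt7a-203, which is 293 bases long. Those counts made up 7.07% and 2.75% of the gene's counts but 54.6% and 30.9% of its TPM. The coding transcript Wnt7a-201 was at 2.83 and 2.98 TPM. In the second quantification 0% of the Wnt7a level came from the processed transcript, and the gene had 4.68 and 4.91 TPM.

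Fzd3 has the same feature in replicate 1 alone. The processed transcript Fzd3-201, 426 bases long, received 29.5 counts and 4.14 TPM in replicate 1 and 0 in replicate 2. The coding transcript Fzd3-202 was at 31.06 TPM in replicate 1 and 32.28 TPM in replicate 2. So the gene's TPM was higher in replicate 1, while its counts and its coding transcript were higher in replicate 2. Across the members with counts in both libraries, the effective length used to turn counts into TPM differed by more than 5% between the animals in 12 of 34. Among the 21 members above 1 TPM these were Wnt7a, Wnt5a, Wnt6, Fzd3 and Fzd6.

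**Figure D2:**
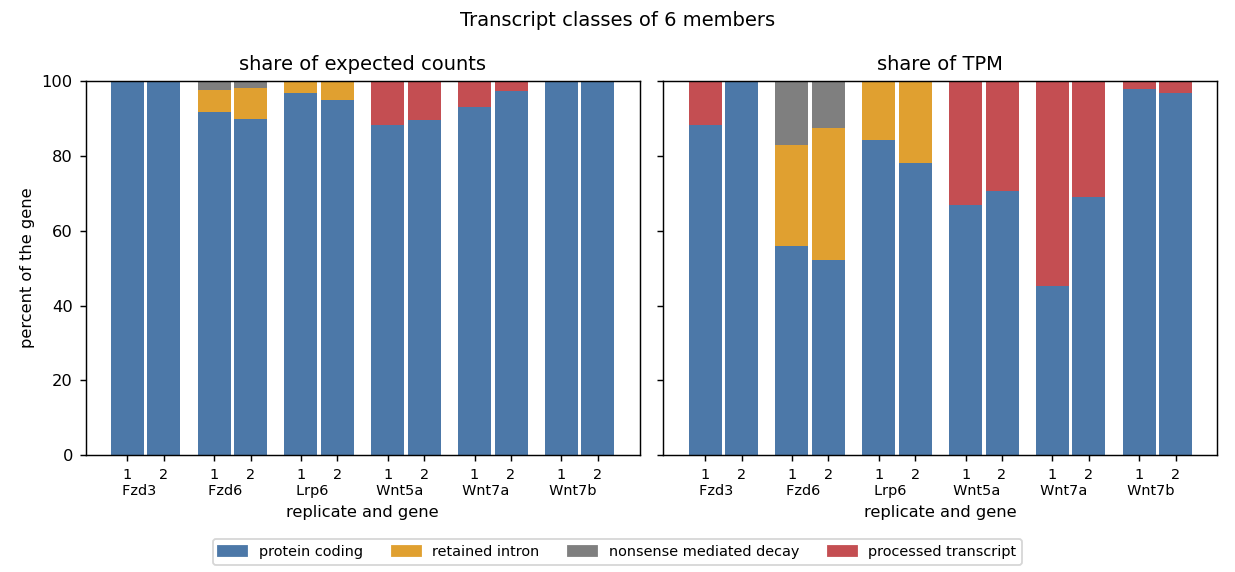
Share of each gene's expected counts (left) and TPM (right), in percent, by annotated transcript class for 6 members in replicates 1 and 2. Noncoding classes take 54.6% of Wnt7a TPM in replicate 1 while holding 7.07% of its counts.

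Counting coding transcripts alone moved Fzd6 from 3.76 and 4.16 TPM to 2.10 and 2.17 TPM, below Fzd7, Fzd4 and Fzd9. Its retained-intron transcript held 27.0% and 35.2% of its TPM. Wnt5a moved to 2.63 and 2.99 TPM, with 33.0% and 29.5% of its TPM in processed transcripts. On this scale Wnt2, Wnt5a and Wnt7a lay close together, with Wnt2 at 2.79 and 3.00 TPM. The number of members at 1 TPM in both animals was 21 on either scale.

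Several coding forms were in use at Wnt7b. The form Wnt7b-202 held 46.3% and 45.5% of the gene's TPM, Wnt7b-204 28.2% and 24.8%, and Wnt7b-201 21.2% and 21.6%. These forms keep full coding sequences of 1047, 1059 and 1068 bases. In the second quantification their shares were more even, at 30.4% ± 1.05 for Wnt7b-202, 30.7% ± 3.39 for Wnt7b-204 and 28.0% ± 0.217 for Wnt7b-201 (SD, n = 2), so the lead of the first form depends on the quantification.

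Wnt9a and Wnt10a were each assigned to 1 form in the first quantification. Wnt9a-202 held 100% of the Wnt9a level in both quantifications. It is 3318 bases long and Wnt9a-201 is 3320, with 1095 coding bases each, and whether reads tell them apart was not tested. Wnt10a-201 held 100% of the Wnt10a level in the first quantification and 94.1% ± 8.40 in the second (SD, n = 2). There Wnt10a-202 held 11.9% in replicate 1 and 0% in replicate 2. At Lrp6 the long form Lrp6-201 held 65.8% and 62.5% of TPM. The short form Lrp6-203, 722 bases long and annotated as coding, held 18.5% and 15.7% of TPM. It received only 49.7 and 44.2 of the gene's 2761 and 2810 expected counts. Its annotated coding sequence is 395 bases, against 4839 in Lrp6-201. Retained-intron transcripts held 15.8% and 21.9% of TPM but 3.08% and 5.03% of counts.

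The Wnt genes of the mouse include adjacent pairs, and in some of them the neighbours stood at very unlike levels. There were 4 such pairs, each within 50000 bases on mm10 with no annotated gene between. Wnt6 and Wnt10a lie on 1 strand of chromosome 1 with 6193 bases between them, and Wnt10a was 3.58 ± 0.515 times Wnt6 (SD, n = 2). Wnt3a and Wnt9a point away from each other on chromosome 11 across 16175 bases, with 1 and 0 expected counts for Wnt3a and 585 and 599 for Wnt9a. The divergent genes Wnt9b and Wnt3, 24328 bases apart on chromosome 11, were both low, with Wnt3 at 4.31 ± 1.10 times Wnt9b. Wnt10b and Wnt1, 11706 bases apart on chromosome 15, were low too.

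**Figure D3:**
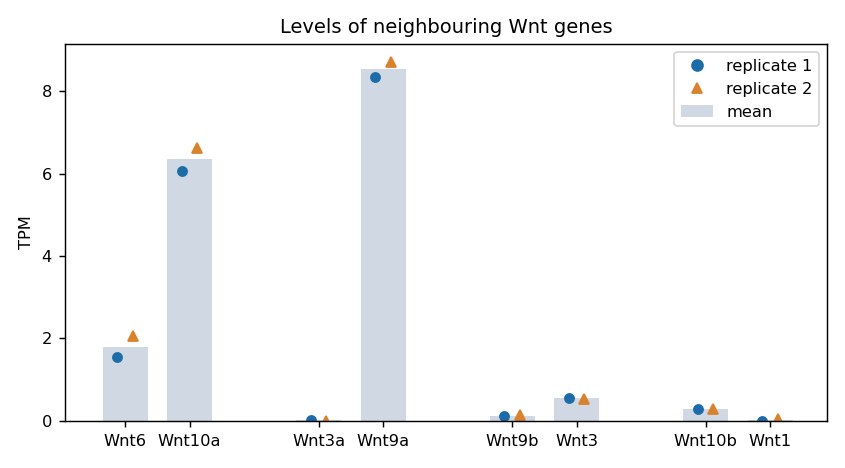
TPM of the genes of each adjacent Wnt pair, with bars for the mean and points for replicates 1 and 2. Wnt9a stands at 8.35 and 8.71 TPM beside Wnt3a at 0.02 and 0 TPM.

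The start-site windows of Wnt9a and Wnt3a are shown because these neighbours differ most in level. Each holds the 250 bases before the start site, 5′ to 3′ on the gene's strand, from RefSeq on GRCm38.p6. The Wnt9a window is chr11:59306680-59306929 on the plus strand and the Wnt3a window is chr11:59290752-59291001 on the minus strand. Capitals mark each CG pair, the site of DNA methylation.
Wnt9a: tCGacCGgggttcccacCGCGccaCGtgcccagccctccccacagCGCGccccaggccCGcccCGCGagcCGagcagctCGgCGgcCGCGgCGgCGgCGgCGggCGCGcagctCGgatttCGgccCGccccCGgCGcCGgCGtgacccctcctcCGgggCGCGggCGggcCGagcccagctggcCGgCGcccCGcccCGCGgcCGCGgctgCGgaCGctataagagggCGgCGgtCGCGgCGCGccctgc
Wnt3a: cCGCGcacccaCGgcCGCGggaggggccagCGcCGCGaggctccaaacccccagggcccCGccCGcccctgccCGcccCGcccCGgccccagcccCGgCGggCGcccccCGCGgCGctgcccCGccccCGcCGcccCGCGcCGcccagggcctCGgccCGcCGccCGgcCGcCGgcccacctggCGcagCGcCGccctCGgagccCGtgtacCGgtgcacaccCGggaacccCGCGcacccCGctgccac
The Wnt9a window held 48 CG pairs at 84.4% G and C, and the Wnt3a window 41 at 87.6%, although Wnt3a was at or near 0. Windows were found for 25 of the 39 members, 28 in all because some genes have several starts. None was found for Dkk3, Fzd3, Lrp6 or Wnt7b, the highest members. The median of the 28 windows was 22 CG pairs, against 6 over all 32851 windows of that length, from 27025 genes. The letters CTTTGAT, the core bound by TCF and LEF factors, occurred on either strand in 2 of the 28 windows (7.14%), of Wnt5b and Wnt11, and in 3.21% of all windows. A match describes letters in the window, not binding.

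Between the animals the members differed little, as did genes at large. The ratio of replicate 2 to replicate 1 was taken from expected counts after scaling, for the 32 members with a mean count of at least 10. None of the 32 differed 2-fold, against 1.80% of 18490 genes. The median log2 ratio was 0.03 over the members and 0.00 over all genes tested, and the median size of the log2 ratio was 0.11 for both. The ratio ran from a log2 value of -0.74 for Sfrp5, which had 15 and 8 counts, to 0.32 for Wnt6, which had 59 and 73.

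An exact 95% interval for counting error left out 0 for 3 of the 32 members (9.38%), against 22.8% of all genes, 10.6% higher and 12.2% lower in replicate 2. The members had fewer counts than genes at large, with a median of 204 against 373, which widens their intervals. All 3 were higher in replicate 2. Wnt4 had 476 and 546 expected counts, a log2 ratio of 0.22 (0.05 to 0.41). Fzd4 had 381 and 437, a log2 ratio of 0.22 (0.02 to 0.43), and Fzd3 had 8574 and 8716, a log2 ratio of 0.05 (0.008 to 0.094). The Fzd3 interval held 0 with DESeq2 scaling and in the second quantification, and its ratio turned to -0.12 when taken from TPM. With scaling to the spike-ins the interval left out 0 for 17 members, all higher in replicate 2, as that scaling moved the median of all genes to a log2 ratio of 0.32.

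**Figure D4:**
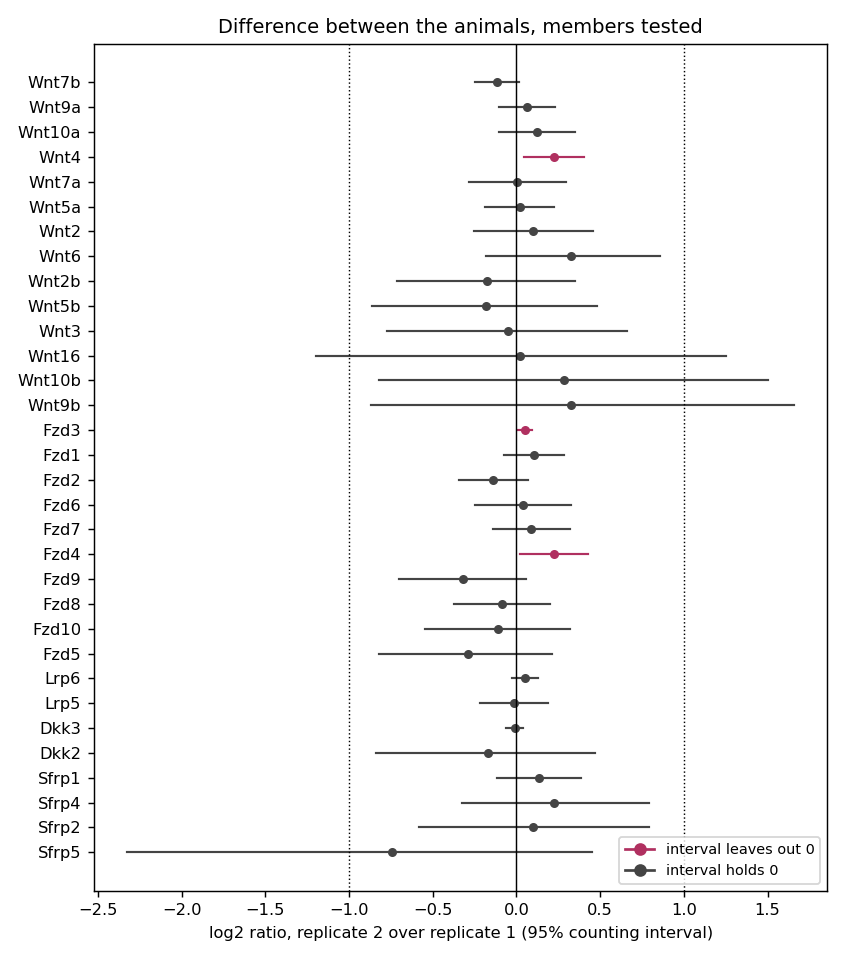
Log2 ratio of replicate 2 to replicate 1 with its exact 95% counting interval for the 32 members tested, and dotted lines at 2-fold. The intervals of Wnt4, Fzd3 and Fzd4 leave out 0, and no point passes 2-fold.

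Marker genes of some other regions and cell types differed between the tissue pieces. The counts of markers per list are to be read against all genes tested. Of those genes, 10.6% were higher and 12.2% lower in replicate 2 beyond counting error. The 5 markers of projection neurons of the cortex summed to 2599 and 2687 TPM, with 1 higher and 1 lower in replicate 2. The 7 striatal markers summed to 264 and 144 TPM, and all 7 were lower in replicate 2 beyond counting error. The 6 choroid plexus markers summed to 13.0 and 95.6 TPM. Of these sums Ttr made up 8.58 and 89.16 TPM, nearly all of it in replicate 2 alone. Folr1 was listed at 0 and 0.80 TPM, and 2 of the 4 markers with enough counts were higher in replicate 2. The 5 oligodendrocyte markers summed to 766 and 620 TPM and the 4 red blood cell genes to 462 and 377 TPM, and all of both lists were lower in replicate 2 beyond counting error. So were 4 of 6 inhibitory neuron markers, at 553 and 512 TPM, and 2 of 4 thalamic markers, at 30.4 and 25.2 TPM. The 5 astrocyte markers summed to 1020 and 1038 TPM, with 1 higher and 2 lower, the 5 endothelial markers to 57.6 and 54.6 TPM, with 1 lower, and the 6 meningeal markers to 78.7 and 83.3 TPM, with 1 higher and 1 lower. Their part in the differences of Wnt4, Fzd4 and Fzd3 was not tested.

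Of 77 further genes of the pathway in 6 lists, 76 were found by symbol. Of these 64 (84.2%) reached 1 TPM in both animals, against 58.7% of protein-coding genes, and 12 did not. Of the 74 with enough counts, 14 (18.9%) differed between the animals beyond counting error, against 22.8% of all genes tested. Of these 8 (10.8%) were higher and 6 (8.11%) lower in replicate 2, against 10.6% and 12.2% of all genes. None differed 2-fold, against 1.80%, and the median log2 ratio was 0.01. The counts per list below are to be read against the same shares. All 4 genes found of Wnt secretion and modification were above 1 TPM. Porcn, which attaches the fatty acid, had 32.32 and 32.99 TPM, and Wls, which carries Wnts to the surface, had 18.33 and 19.03 TPM. Trabd2b, a protease that inactivates Wnts, had 2.52 and 2.94 TPM and was the 1 gene of this list beyond counting error, with a log2 ratio of 0.22.

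Other secreted modulators reached 1 TPM in 7 of 12 genes, with 2 higher and 1 lower in replicate 2. Dkkl1, a relative of Dkk3, had 11.58 and 14.33 TPM and a log2 ratio of 0.32. Frzb, the third Sfrp, had 11.67 and 12.52 TPM, above the 4 Sfrp genes summed. Rspo1, an R-spondin that strengthens Wnt signals, had 7.47 and 7.54 TPM. Other receptors and coreceptors reached 1 TPM in 11 of 17 genes, with 0 higher and 1 lower. Ryk, a Wnt receptor of axons, led with 14.94 and 15.65 TPM, followed by the R-spondin receptor Lgr4 at 11.57 and 11.10 TPM and by Tspan12 at 10.90 and 10.85 TPM.

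A few further genes with known roles in brain vessels are given as single values. They were picked after their values were seen and are no list of their own. Norrin, encoded by Ndp, signals through Fzd4, Lrp5 and Tspan12, and Ndp had 3.59 and 3.56 TPM. Wnt7a and Wnt7b signal to vessels through Adgra2 and Reck, which had 4.86 and 5.11 TPM and 3.28 and 3.78 TPM. Among the genes of this paragraph, Fzd4 was higher in replicate 2 beyond counting error, and Wnt7b was lower in the second quantification but not in the first. The intervals of Wnt7a, Lrp5, Ndp, Tspan12, Adgra2 and Reck held 0.

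Inside the cell, all 23 genes of the beta-catenin route reached 1 TPM, with 2 higher and 2 lower in replicate 2. Ctnnb1, which encodes beta-catenin, had 226.26 and 223.33 TPM, Csnk1a1 120.14 and 118.65 TPM, and Apc 112.26 and 116.73 TPM. Csnk1a1 and Apc encode parts of the machinery that marks beta-catenin for destruction. The TCF and LEF factors, which act with beta-catenin on DNA, were the low end of the list. Tcf7l2 had 3.93 and 3.99 TPM, Lef1 2.16 and 3.51, Tcf7 2.29 and 1.70, and Tcf7l1 1.50 and 1.29 TPM. These 4 are named after their values were seen. Tcf7l2 and Lef1 also belong to the 4 thalamic markers given above, and how much of their level came from thalamic tissue was not tested.

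All 13 genes of the planar polarity and calcium routes reached 1 TPM, with 3 higher and 2 lower. Prickle2 had 73.33 and 72.11 TPM, Celsr2, an adhesion receptor of the polarity route, had 70.18 and 72.20 TPM, and Prickle1 had 39.98 and 40.82 TPM. Of the common target genes 11 of 13 reached 1 TPM, with 1 higher and 0 lower. Ccnd1, a cyclin, had 25.13 and 25.48 TPM, and Tnfrsf19 had 23.06 and 22.91 TPM. Axin2, the feedback inhibitor most often read as a sign of signalling through beta-catenin, had 16.04 and 17.08 TPM. Its log2 ratio was 0.14 (0.01 to 0.27), while the median log2 ratio of the 13 target genes was -0.005. Ctnnb1 was lower in replicate 2, with a log2 ratio of -0.07 (-0.11 to -0.03). The lists differ in level, as the plot of the other pathway genes shows.

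**Figure D5:**
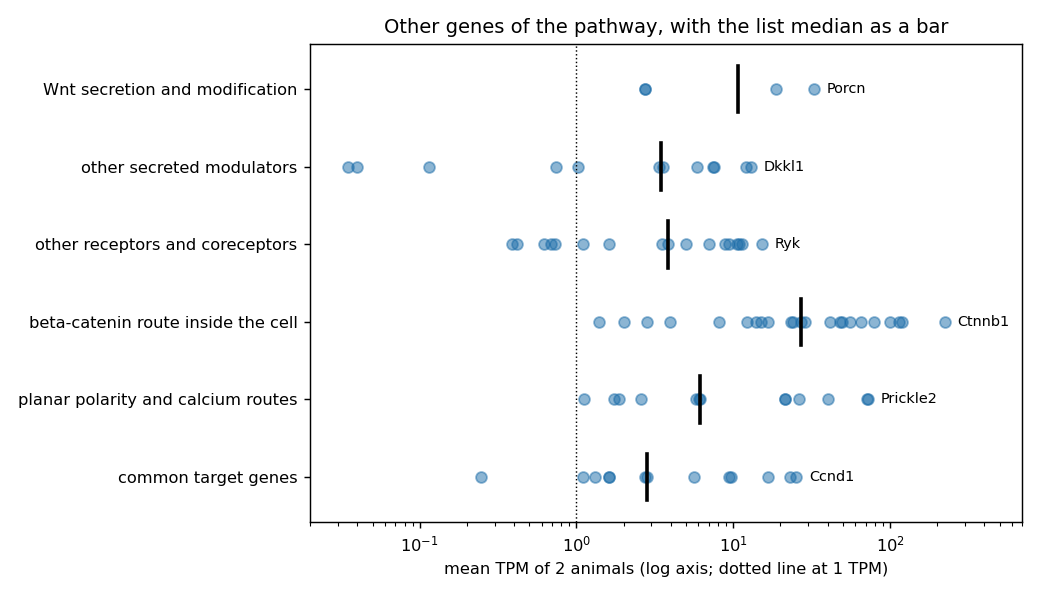
Mean TPM over 2 animals on a log axis for the genes of 6 pathway lists, with a bar at each list's median, a dotted line at 1 TPM and the top gene named. The list medians run from 2.83 TPM for common target genes to 27.2 TPM for the beta-catenin route.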

How the data were processed

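Total RNA-seq libraries of 2 cortices were analysed, with 32866391 and 32032103 expected counts on genes in replicates 1 and 2. The authors deposited expected counts, TPM and, per transcript, the percent of a gene's TPM, from an alignment to the transcriptome (mm10, annotation release M21, per the file headers and description files). A second deposited table holds estimated counts and TPM made directly from reads. The deposited posterior SD of each count, a score per gene, was 0 for all 39 members. It was above 0 in at least 1 library for 6753 genes. Neither the programs nor the strand setting of the counting is given in the sources used here. Of the members 10 overlap another annotated gene, 9 of them one on the opposite strand (Wnt7b, Wnt5a, Wnt6, Wnt5b, Wnt11, Fzd3, Fzd5, Fzd6 and Sfrp2), and Wnt2b and Fzd3 overlap one on the same strand; reads of such pairs may be shared. Reads of the CAST/EiJ alleles were placed on the C57BL/6J-based mm10, and the effect was not tested. Spike-ins held 0.428% and 0.345% of all counts, and rows naming no gene held 1.78e-05% and 2.48e-05%; both stayed out of the gene totals.

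Animal ratios are log2 CPM values with a prior count of 2 after TMM scaling (edgeR 4.0.16, R 4.3.3), for genes averaging 10 or more counts. Intervals are exact Clopper-Pearson intervals at 95% on the 2 counts and cover counting error only. The method was tested on simulated data that held counting error alone. That test therefore does not cover the spread between animals or errors in assigning reads. Every member is named. Forms are given for members at 5 TPM with several coding transcripts, and for members whose effective lengths moved between animals, chosen after seeing the data; for pathway lists the 3 highest genes are given. Members and lists were chosen with earlier results of these data known. Alternatives covered DESeq2 1.42.0 scaling, spike-in scaling, TPM rescaled to protein-coding genes, thresholds, pseudocounts and the second quantification.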

Additional observations from a re-analysis of the deposited data

How the results depend on the processing

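The number of members at 1 TPM in both animals was 21, 27 at 0.5 TPM, 18 at 2 TPM and 25 in the second quantification, and leaving out 1 replicate gave 22 to 23. The alternative of counting coding transcripts alone was chosen after seeing the data and gave 21. The number beyond counting error was 3, and it was 17 with spike-in scaling, 2 with DESeq2 scaling and 4 in the second quantification, where Fzd4 and Wnt4 were higher and Fzd9 and Wnt7b lower. The number past 2-fold was 0, and 1 with no count minimum, which was Wnt1 with 0 and 2 counts. The Fzd3 log2 ratio turned to -0.12 from TPM with a pseudocount of 1 and to -0.12 with 0.1; TPM includes the short processed transcript that was counted in replicate 1 alone. The second quantification gave higher TPM for 20 of the 21 members above 1 TPM, by a median of 1.46-fold, and the cause was not tested. Rescaling TPM to protein-coding genes alone multiplied levels by 2.02 in replicate 1 and 2.08 in replicate 2. On that scale the mean was 31.8 TPM for Wnt7b and 180 TPM for Dkk3. The number of members at 1 TPM was not counted on it. No paired analysis was possible because both libraries belong to 1 group. With 2 animals an SD is imprecise, and the 4 Wnt genes with at most 2 counts could not be ordered.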
